A study of Rattus norvegicus with 30 samples.

Results

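The genes described here make cholesterol from acetyl-CoA, sense how much sterol a cell holds, and move, store or export it. They were chosen by gene symbol from a list of 31 sterol genes, by a rule that names no measured value, and followed across all 30 arrays of a study of rat hepatocytes given WY-14643. Of the 31 genes, 28 had a probe set that carries their symbol alone, out of 14217 genes with such a probe set in the series. Hmgcs1, Npc1 and Soat2 had none. Mylip, a ubiquitin ligase that lowers sterol uptake receptors, stayed below the signal filter, with group means between 31.7 and 167 against a filter of 281, and was not tested. The remaining 27 genes were measured. Enzymes of the pathway that are not in the list were not analysed here.

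WY-14643, also called pirinixic acid, is a synthetic agonist of PPARα, the nuclear receptor that switches on fatty acid oxidation in liver. Frozen hepatocytes of male Sprague Dawley rats, bought from a supplier, were plated on collagen under Matrigel and dosed on day 3 of culture. The 6 groups were vehicle, 8 µM and 200 µM WY-14643, each with RNA taken 24 h or 48 h after dosing, and each held n = 5 wells read on Affymetrix rat arrays. Vehicle wells carry the label 1% DMSO. The labels do not settle how much DMSO the treated wells received. The wells are described as separate cultures, but whether different wells held cells of different animals is not stated, so errors and p-values measure the spread between wells. Whole-well RNA was measured, so fewer cells of a type and less RNA per cell cannot be told apart. All cells are labelled as hepatocytes, and of 10 hepatocyte markers 9 were measured, with albumin (Alb) and transthyretin (Ttr) among them.

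Hepatocytes are among the main sites of cholesterol synthesis in the body. Acetyl-CoA is built into mevalonate and isoprenoid diphosphates, these are joined into squalene, squalene is closed into lanosterol, and lanosterol is trimmed and reduced to cholesterol. The transcription factor SREBP2, encoded by Srebf2, turns on nearly all of these enzymes. SCAP carries SREBP2 out of the endoplasmic reticulum when sterol is scarce, and the INSIG proteins hold the pair back when sterol is plentiful. Excess cholesterol is esterified by SOAT enzymes or exported through ABCA1, whose gene is a target of the oxysterol receptor LXR.

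In proximal promoters, SREBP2 works beside factors that bind the CCAAT box, so the 250 bases before the RefSeq transcription start (build GRCr8) were searched on both strands for CCAAT. RefSeq promoters were found for 26 of the 31 genes. Pmvk, Fdft1, Sqle, Stard4 and Soat2 had no entry. CCAAT was present in 20 of the 26 promoters (76.9%), against 34.0% of all 33469 promoters in the table and 35.1% of the 10778 promoters of tested genes. The 6 matched promoters without it were those of Acat2, Cyp51, Dhcr7, Scap, Npc1 and Abca1. The sterol element core TCACNCCAC was in none of the 26 and in 0.974% of all promoters. Copies of AGGTCA repeated 1 base or 4 bases apart, the forms named DR1 and DR4, were in none of the 26 either, and in 0.0508% and 0.00299% of all promoters. These matches describe letters in a short window and not bound sites. The 6 sequences that follow are those of 4 genes that rose at 8 µM (Hsd17b7, Nsdhl, Fdps and Insig1), of Mvk, which fell while carrying CCAAT in its promoter, and of Soat1, an esterification gene that rose from a low signal. Each reads 5′ to 3′ towards the start site, and capitals mark CCAAT or its complement ATTGG. In the order given they lie at chr13:84722755-84723004 (minus strand), chrX:155817110-155817359 (plus strand), chr2:176804817-176805066 (minus strand), chr4:8057770-8058019 (minus strand), chr12:47819504-47819753 (minus strand) and chr13:71147673-71147922 (minus strand).
Hsd17b7: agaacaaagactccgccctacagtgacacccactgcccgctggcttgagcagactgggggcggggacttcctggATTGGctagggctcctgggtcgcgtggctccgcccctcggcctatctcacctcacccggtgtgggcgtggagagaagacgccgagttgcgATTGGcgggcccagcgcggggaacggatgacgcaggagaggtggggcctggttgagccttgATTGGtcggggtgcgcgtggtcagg
Nsdhl: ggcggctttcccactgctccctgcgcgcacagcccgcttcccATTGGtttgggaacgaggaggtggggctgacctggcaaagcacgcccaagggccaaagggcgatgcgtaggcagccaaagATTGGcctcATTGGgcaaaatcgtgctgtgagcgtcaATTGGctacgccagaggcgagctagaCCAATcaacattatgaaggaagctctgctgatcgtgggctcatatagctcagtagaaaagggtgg
Fdps: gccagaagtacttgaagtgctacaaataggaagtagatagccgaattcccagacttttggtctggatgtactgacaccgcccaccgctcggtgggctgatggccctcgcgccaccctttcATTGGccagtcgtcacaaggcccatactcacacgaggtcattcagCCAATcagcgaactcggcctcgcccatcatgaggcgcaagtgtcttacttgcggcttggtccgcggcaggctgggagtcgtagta
Insig1: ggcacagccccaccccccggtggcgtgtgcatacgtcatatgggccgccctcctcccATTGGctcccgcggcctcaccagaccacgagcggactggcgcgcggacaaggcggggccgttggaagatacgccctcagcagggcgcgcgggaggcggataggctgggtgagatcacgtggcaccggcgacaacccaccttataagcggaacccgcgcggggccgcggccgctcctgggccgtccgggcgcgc
Mvk: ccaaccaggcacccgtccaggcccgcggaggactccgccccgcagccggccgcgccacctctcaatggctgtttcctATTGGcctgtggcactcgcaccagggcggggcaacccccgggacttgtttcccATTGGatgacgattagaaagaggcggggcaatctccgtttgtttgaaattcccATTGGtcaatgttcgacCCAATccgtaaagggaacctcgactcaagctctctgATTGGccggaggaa
Soat1: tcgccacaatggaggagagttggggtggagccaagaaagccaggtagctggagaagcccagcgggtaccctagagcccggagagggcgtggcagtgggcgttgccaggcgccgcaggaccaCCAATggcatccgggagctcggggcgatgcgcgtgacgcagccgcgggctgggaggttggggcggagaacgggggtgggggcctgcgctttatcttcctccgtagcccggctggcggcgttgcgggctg

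Nsdhl and Mvk held the most matches of the 6, with 5 each, Hsd17b7 held 3, Fdps held 2, and Insig1 and Soat1 held 1 each. A gene that rose and a gene that fell carried the same number of matches.

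Signals are MAS5 values on a linear scale, and fold changes are differences of log2(signal + 16) fitted with limma over all arrays. A gene rose or fell where the Benjamini-Hochberg adjusted p over 11545 genes was below 0.05. One array stood apart. On 48 h vehicle replicate 4 the median signal was 765, against 385 to 439 on the other 29 arrays, and its correlation with the other wells of its group (median, across genes, which are not independent replicates) was 0.896, whereas every other array reached 0.973 to 0.980. That well gave the lowest 48 h vehicle signal for 21 of the 27 sterol genes and for 16 of the 18 enzymes, so 48 h results that rest on it are given without it too. The treatment itself registered in every treated group, where all 7 measured PPARα target genes of the comparison list rose, with list medians between 3.47 and 3.66 on the log2 scale.

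At 8 µM more sterol genes rose than fell, and by 48 h most synthesis enzymes were up. Of the 27 sterol genes, 10 rose and 3 fell at 24 h, and 18 rose and 2 fell at 48 h. Among all genes tested, 11.1% rose and 13.8% fell at 24 h (24.9% called), and 16.7% rose and 18.9% fell at 48 h (35.6% called), against 10 of 27 and 18 of 27 sterol genes that rose. The 18 measured synthesis enzymes carried most of this: 8 rose and 2 fell at 24 h with a median log2 fold change of 0.20, and 14 rose and none fell at 48 h with a median of 0.47 (at an unadjusted p below 0.05, limma gave 14 higher and 1 lower). The medians of all genes in these comparisons were -0.03 and -0.06. Without 48 h vehicle replicate 4, the same 20 genes passed in the same direction at 48 h, and the enzyme median was 0.39. In that fit 37.1% of all genes were called at 48 h. Centring each array on its median with all 30 arrays kept 18 rises and no fall at 48 h (24.7% of all genes called). At 24 h it left 2 rises and 1 fall, a share near the 12.7% of all genes called under that setting, with an enzyme median of 0.23. A setting added after seeing the data left 48 h vehicle replicate 4 out before centring. There 12 rose and 3 fell at 24 h (27.7% of all genes called), and 17 rose and 2 fell at 48 h (34.6%). Groups that did not overlap were found for 11 of the 27 genes at 24 h (8 above and 3 below vehicle, against 22.1% of all genes) and for 17 at 48 h (16 above and 1 below, against 21.3%). Without vehicle replicate 4, Stard4 also lay below every vehicle well at 48 h. The summed signal of the measured hepatocyte markers was lower at 8 µM at 24 h, without overlap, and overlapped at 48 h: it was 506368 to 601211 in vehicle wells and 457950 to 499380 at 8 µM at 24 h, and 383546 to 563907 and 371754 to 425552 at 48 h. At 200 µM the sum was 467811 to 513420 at 24 h and 364135 to 411929 at 48 h, and it overlapped vehicle at both times. Ahsg, Cps1 and Tat fell in all 4 treated comparisons and Asgr1 rose in all 4. At an unadjusted p below 0.05 in limma, Fgb and Serpina1 were also lower at both doses at 48 h, and Fgb at 8 µM at 24 h.

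Some markers of other liver cells moved with treatment too. Stellate cell and fibroblast markers (5 of 7 measured, with Lrat and Pdgfrb below the filter) summed to 3592 to 4023 in vehicle wells, 3188 to 3793 at 8 µM and 2816 to 3194 at 200 µM at 24 h. At 48 h the sums were 4096 to 6695, 3367 to 3932 and 3015 to 3395, so that treated wells lay below vehicle wells without overlap except at 8 µM at 24 h. The sums do not stand for each marker. At an unadjusted p below 0.05 in limma, Acta2 alone was lower at 24 h, at both doses. At 48 h Acta2 and Des were lower at 8 µM, and Acta2, Col1a1 and Col3a1 at 200 µM. None was higher. Cholangiocyte markers (2 of 5 measured, with Krt7 and Cftr below the filter) summed to 7973 to 10011 in vehicle wells, 7563 to 8596 at 8 µM and 6644 to 7753 at 200 µM at 24 h, and to 9203 to 13118, 10666 to 11905 and 9511 to 10495 at 48 h. Only the 200 µM wells at 24 h lay apart from vehicle for these. At an unadjusted p below 0.05 in limma, Krt19 was lower at 8 µM at both times. Epcam was lower at 200 µM at 24 h, and both genes at 200 µM at 48 h. Endothelial sums overlapped vehicle at both doses and times. Among their genes, Lyve1 was lower at 200 µM at both times and at 8 µM at 48 h (limma, unadjusted p below 0.05). The part of all these marker shifts in the results was not tested.

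At 200 µM the enzymes showed no common direction. At 24 h, 2 sterol genes rose and 5 fell (7 of 27, or 25.9%, where 24.7% of all genes were called, 11.6% up and 13.1% down), 1 enzyme rose and 2 fell, and the enzyme median was -0.07. Without 48 h vehicle replicate 4, which enters the shared variance, 5 rose and 6 fell at 24 h: Fdps, Sc5d and Tmem97 were added as rises and Pmvk as a fall, so that 3 enzymes rose and 3 fell. In that fit 31.0% of all genes were called at 24 h. At 48 h, 9 sterol genes rose and 3 fell, where 33.8% of all genes were called, 16.8% up and 17.1% down, and 5 enzymes rose and 1 fell, with a median of 0.08. The 48 h split also depended on that array: without it 6 sterol genes rose and 7 fell, 3 enzymes rose and 5 fell, and the enzyme median was -0.04. There 36.2% of all genes were called. Quantile normalization of all 30 arrays gave 7 that rose and 5 that fell (35.5% of all genes called), and median centring 6 and 1 (22.9%). With that array left out before scaling, quantile normalization gave 7 and 6 (36.6%), and median centring 5 and 6 (33.5%). Groups that did not overlap were found for 7 genes at 24 h (21.3% of all genes) and 6 at 48 h (21% of all genes). At 48 h Hsd17b7, Sc5d, Soat1 and Tmem97 lay above vehicle, and Mvk and Srebf2 lay below. Without vehicle replicate 4, Acat2, Ebp, Sqle and Stard4 also lay below every vehicle well at 48 h. The share of all genes with groups that did not overlap without that well was not computed.

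**Figure D1:**
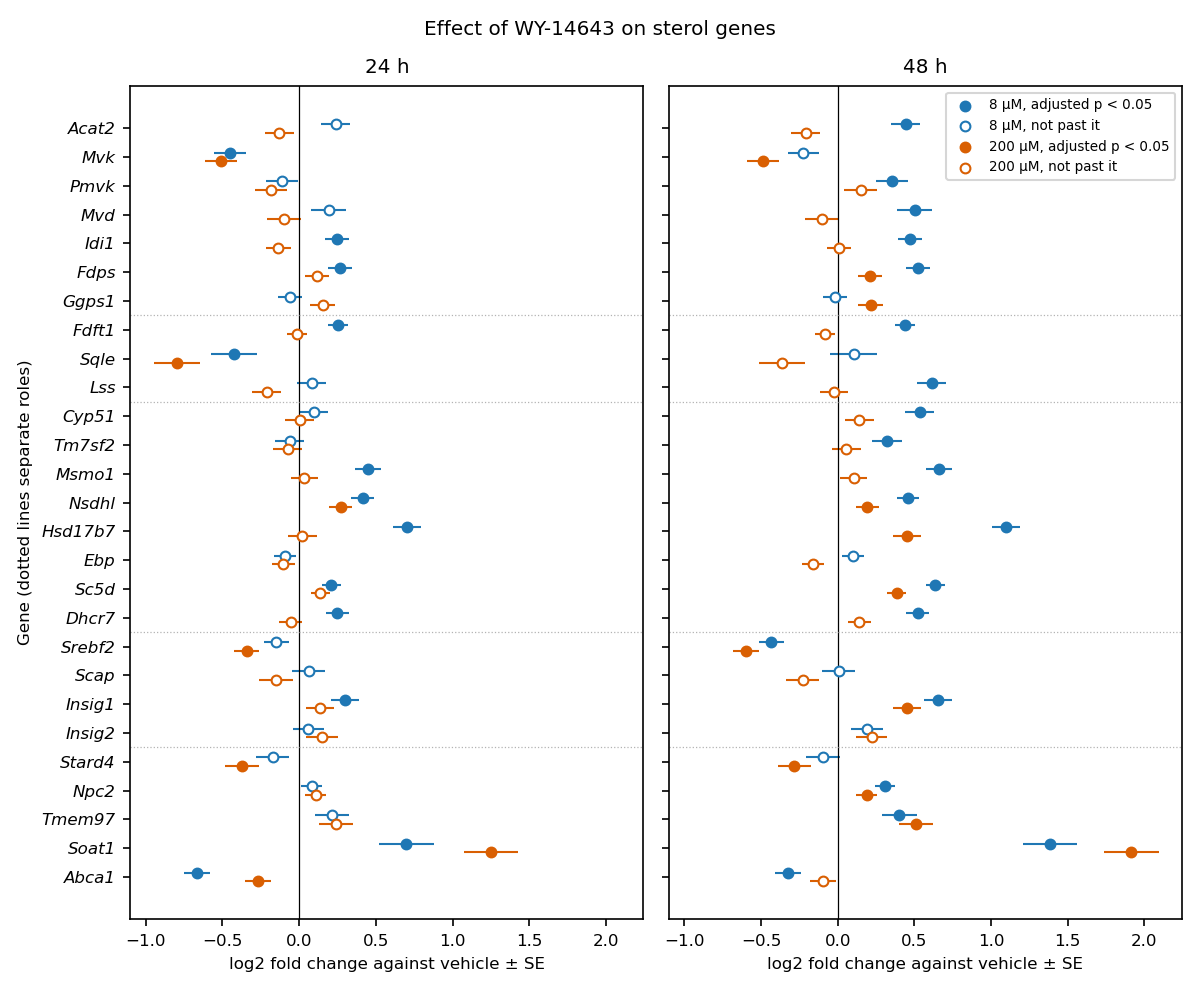
Log2 fold change against the vehicle of the same time (x axis, ± SE, n = 5 wells a group) for the 27 measured sterol genes (y axis), at 24 h (left) and 48 h (right), with 8 µM in blue and 200 µM in orange. Filled points passed an adjusted p of 0.05; 17 of the 18 enzymes, all but Ggps1, lie further right at 8 µM than at 200 µM at each time.

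The mevalonate arm runs from acetyl-CoA to the isoprenoid diphosphates, and 7 of its 8 listed genes were measured. At 8 µM 2 of them rose and 1 fell at 24 h, and 5 rose at 48 h. Acat2, the cytosolic thiolase that joins acetyl-CoA units, had a log2 fold change of 0.24 ± 0.09 (SE, adjusted p = 0.0622) at 24 h and rose by 0.44 ± 0.09 (SE, adjusted p = 0.000278) at 48 h at 8 µM. At 200 µM its values were -0.13 and -0.21, neither past the threshold, but without vehicle replicate 4 the 48 h value was -0.28 (adjusted p = 0.0185), a fall. Mvd, the decarboxylase that makes isopentenyl diphosphate, rose at 8 µM at 48 h by 0.50 ± 0.11 (SE, adjusted p = 0.00055). At 200 µM it had -0.10 at 48 h, and -0.24 (adjusted p = 0.0453) without that well. Idi1, which isomerizes isopentenyl diphosphate, rose at 8 µM at both times, by 0.25 and 0.47. Its 200 µM values were -0.13 and 0.01. Pmvk, phosphomevalonate kinase, rose at 8 µM at 48 h by 0.35, a value that dropped to 0.19 (adjusted p = 0.0343) without vehicle replicate 4.

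Fdps makes farnesyl diphosphate, the branch point between sterols and other isoprenoids. Fdps at 24 h read 32851, 33917, 33417, 33583 and 34678 in the vehicle wells, 38005, 39656, 43219, 38862 and 43558 at 8 µM, and 37161, 36959.7, 35938, 36202 and 36064 at 200 µM. All wells of both doses lay above all vehicle wells, and the 8 µM wells lay above the 200 µM wells. The log2 fold change was 0.27 ± 0.08 (SE, adjusted p = 0.00913) at 8 µM and 0.11 ± 0.08 (SE, adjusted p = 0.34) at 200 µM. The 200 µM value passed as a rise without 48 h vehicle replicate 4 in the fit (adjusted p = 0.0255). Fdps read, at 48 h, 38874, 41390.4, 38411, 25843 and 39885 in the vehicle wells, 51398, 53640.2, 51939, 51299 and 52636 at 8 µM, and 43696, 41553, 42139.5, 45069.6 and 38398 at 200 µM. Again the 8 µM wells stood above both other groups, and vehicle replicate 4 was far below its group. Fdps rose by 0.52 ± 0.08 (SE, adjusted p = 1.96e-06) at 8 µM and by 0.21 ± 0.08 (SE, adjusted p = 0.0353) at 200 µM. Without that well the values were 0.40 (adjusted p = 2.2e-09) and 0.09 (adjusted p = 0.104), so the rise at 200 µM rests on it.

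Mvk, mevalonate kinase, is the exception of this arm. Mvk at 24 h read 2775, 2458, 2055, 2123 and 2656 in the vehicle wells, 1824, 1869.8, 1442, 1762 and 1898 at 8 µM, and 1769.6, 1702, 1712, 1989 and 1308 at 200 µM. The treated wells of both doses lay below every vehicle well. It fell by 0.45 ± 0.10 (SE, adjusted p = 0.00105) at 8 µM and by 0.51 ± 0.10 (SE, adjusted p = 0.000267) at 200 µM. For Mvk the 48 h signal was 2711, 2693, 2527, 2444 and 2208 in the vehicle wells, 2557, 2034, 1944, 2316 and 1949.9 at 8 µM, and 1914, 1772, 1952, 1707 and 1613 at 200 µM. There only the 200 µM wells lay apart from vehicle, with a log2 fold change of -0.49 ± 0.10 (SE, adjusted p = 0.000335), and the 8 µM value was -0.22 ± 0.10 (SE, adjusted p = 0.0938). The second kept probe set of Mvk fell at 48 h at both doses, by 0.76 and 0.78, and did not pass at 24 h.

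Ggps1, which turns farnesyl into geranylgeranyl diphosphate and so leads away from sterols, passed in 1 of the 4 treated comparisons, 200 µM at 48 h, where it rose by 0.21 ± 0.08 (SE, adjusted p = 0.0338). Its 8 µM value there was -0.02. Its other probe sets gave 0.09 and -0.55 at 200 µM, neither past the threshold, so the direction depends on the probe set.

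From farnesyl diphosphate to lanosterol the path has 3 enzymes, and they did not move alike. Fdft1, squalene synthase, rose at 8 µM by 0.26 ± 0.07 (SE, adjusted p = 0.00321) at 24 h and by 0.44 ± 0.07 (SE, adjusted p = 1.73e-06) at 48 h. At 200 µM it had -0.01 and -0.08. Lss, which closes the ring system to lanosterol, did not pass at 24 h at 8 µM (0.08) and rose by 0.61 ± 0.09 (SE, adjusted p = 2.09e-06) at 48 h. All 5 of its 48 h wells at 8 µM, with signals from 3863 to 4228, lay above the vehicle wells, which ran from 2311 to 3043.

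Sqle, squalene epoxidase, commits squalene to the sterol ring. Sqle at 24 h read 5928, 7344, 6469, 6706 and 6623 in the vehicle wells, 4927, 4774, 4989, 4089 and 5921 at 8 µM, and 3679.8, 3758, 3018, 3482 and 5361 at 200 µM. Every treated well lay below every vehicle well, and the doses overlapped. Its log2 fold change was -0.43 ± 0.15 (SE, adjusted p = 0.0339) at 8 µM and -0.80 ± 0.15 (SE, adjusted p = 9.12e-05) at 200 µM. The Sqle signal at 48 h was 10025, 9727, 9299.8, 4674 and 9389 in the vehicle wells, 9985, 9114, 8241, 9141 and 8298 at 8 µM, and 7920.0, 6507, 5535, 7133 and 5524 at 200 µM. Vehicle replicate 4 read about as low as the treated 24 h wells, while the other 4 vehicle wells lay above every 200 µM well. The 48 h log2 fold changes were 0.10 ± 0.15 (SE, adjusted p = 0.635) at 8 µM and -0.36 ± 0.15 (SE, adjusted p = 0.0598) at 200 µM. Without that well they were -0.10 (adjusted p = 0.532) and -0.57 (adjusted p = 0.000158), so the 200 µM fall passed and the 8 µM value changed sign without passing.

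Between lanosterol and cholesterol most enzymes rose at 8 µM. Of 8 measured enzymes, 5 rose at 8 µM at 24 h and 7 at 48 h, and none fell at either dose or time with all arrays. Unadjusted, Ebp at 200 µM and 48 h was the single value on the lower side with p below 0.05, and without 48 h vehicle replicate 4 it fell past the threshold, with -0.24 (adjusted p = 0.00183). The exception at 48 h was Ebp, the sterol isomerase, with 0.10 ± 0.07 (SE, adjusted p = 0.317) at 8 µM. Msmo1, the C4-methyl oxidase, rose by 0.45 ± 0.09 (SE, adjusted p = 0.000116) at 24 h and 0.66 ± 0.09 (SE, adjusted p = 1.49e-07) at 48 h at 8 µM, with 0.03 and 0.10 at 200 µM. Dhcr7, which reduces 7-dehydrocholesterol in the last step, rose at 8 µM by 0.25 and 0.52. Cyp51, the lanosterol demethylase, and Tm7sf2, a sterol reductase, rose at 8 µM at 48 h, by 0.53 and 0.32. Their 24 h values, 0.10 and -0.06, did not pass, and the difference between times was not past the threshold for either (adjusted p = 0.0678 and 0.146).

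Hsd17b7, the ketoreductase that works with Nsdhl at carbon 4, rose most among the enzymes. Hsd17b7 at 24 h read 4520.1, 4321, 4648, 4991 and 4909 in the vehicle wells, 8762, 7249, 6788, 7209 and 8203 at 8 µM, and 5138, 4516, 4036, 5613 and 4563 at 200 µM. Wells at 8 µM lay above all others, and the 200 µM wells overlapped the vehicle wells. Its log2 fold change was 0.70 ± 0.09 (SE, adjusted p = 2.09e-07) at 8 µM and 0.02 ± 0.09 (SE, adjusted p = 0.915) at 200 µM. Hsd17b7 wells at 48 h gave 5128, 4823, 4760.4, 3418 and 4510.1 in the vehicle wells, 8969, 10095, 8350.5, 10443 and 10363 at 8 µM, and 6231, 6088, 5661, 6317 and 6380.3 at 200 µM. The 3 groups did not overlap there, with 200 µM between vehicle and 8 µM. It rose by 1.10 ± 0.09 (SE, adjusted p = 8.42e-12) at 8 µM and by 0.45 ± 0.09 (SE, adjusted p = 0.000193) at 200 µM, and without vehicle replicate 4 by 1.00 (adjusted p = 5.46e-12) and 0.35 (adjusted p = 0.000727). A second probe set of Hsd17b7 rose in all 4 treated groups, by 0.85 and 0.24 at 24 h and by 1.14 and 0.34 at 48 h for 8 and 200 µM.

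Nsdhl, the sterol dehydrogenase that acts with Hsd17b7 and Msmo1, rose in all 4 treated groups with all arrays fitted. Nsdhl at 24 h read 13536, 13982, 15147, 15573 and 13998 in the vehicle wells, 18326, 19204, 21404, 18897 and 18425 at 8 µM, and 18277, 16770.4, 17320.5, 17574 and 17218 at 200 µM. Both doses lay above every vehicle well, with log2 fold changes of 0.41 ± 0.07 (SE, adjusted p = 4.79e-05) and 0.27 ± 0.07 (SE, adjusted p = 0.00584). For Nsdhl the 48 h signal was 19029.6, 16878, 17627, 12300.0 and 18220.3 in the vehicle wells, 22632, 23580.5, 21794, 22886 and 23358 at 8 µM, and 19051, 18947, 19258, 20147 and 17664 at 200 µM. The 8 µM wells stood clear of the other groups, whereas the 200 µM wells overlapped the vehicle wells. The rise was 0.46 ± 0.07 (SE, adjusted p = 7.23e-06) at 8 µM and 0.19 ± 0.07 (SE, adjusted p = 0.0444) at 200 µM. Without vehicle replicate 4 these became 0.35 (adjusted p = 5.4e-07) and 0.08 (adjusted p = 0.194), so the 48 h call at 200 µM rests on that well.

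Sc5d, the C5-desaturase, rose further with time. Sc5d at 24 h read 11495, 12308, 10562, 11164 and 10657 in the vehicle wells, 12555, 12310.5, 12785, 13234 and 14049 at 8 µM, and 12909.9, 11889.7, 12267, 12226 and 12436 at 200 µM. All 8 µM wells lay above the vehicle wells and the 200 µM wells overlapped them. The log2 fold changes were 0.21 ± 0.06 (SE, adjusted p = 0.0115) and 0.14 ± 0.06 (SE, adjusted p = 0.115), and the second passed without 48 h vehicle replicate 4 in the fit (adjusted p = 0.0209). The Sc5d signal at 48 h was 12661, 13172, 12681, 9728 and 11900.4 in the vehicle wells, 19228, 18786, 18427, 18859 and 17761 at 8 µM, and 16750.0, 14728, 15421, 16407 and 14848 at 200 µM. All 3 groups were separate. Sc5d rose by 0.64 ± 0.06 (SE, adjusted p = 4.09e-10) at 8 µM and by 0.38 ± 0.06 (SE, adjusted p = 8.31e-06) at 200 µM, and by 0.56 (adjusted p = 2.68e-11) and 0.31 (adjusted p = 4.58e-06) without vehicle replicate 4. Both other probe sets of Sc5d rose in all 4 treated groups.

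**Figure D2:**
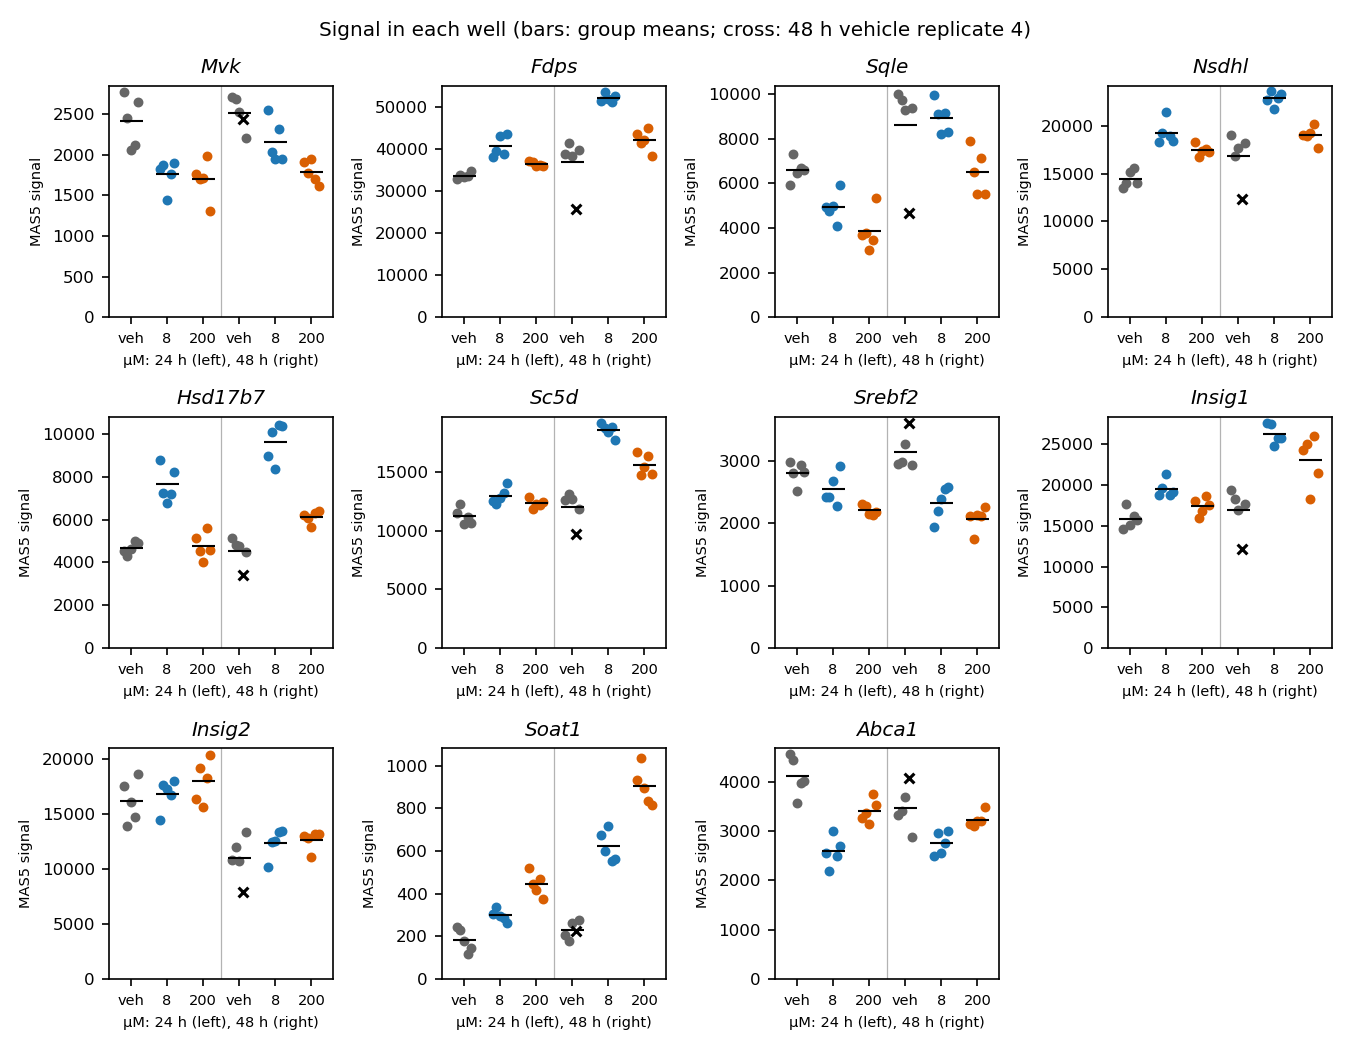
MAS5 signal in each well (y axis, linear, from 0) for 11 sterol genes, by group (x axis: vehicle, 8 µM and 200 µM at 24 h on the left of each panel and at 48 h on the right). Bars are means of n = 5 wells and crosses mark 48 h vehicle replicate 4; the Soat1 groups lie in order of dose at both times, while the 8 µM wells of Hsd17b7 lie above the wells of both other groups.

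The genes that control SREBP2 moved in different directions. Srebf2, which encodes the factor itself, fell in 3 of the 4 treated comparisons. Srebf2 at 24 h read 2971, 2806, 2518, 2936 and 2809 in the vehicle wells, 2414, 2416, 2679.8, 2275 and 2906 at 8 µM, and 2312, 2279, 2145, 2126 and 2181 at 200 µM. The 200 µM wells lay below all vehicle wells and the 8 µM wells overlapped them, with log2 fold changes of -0.15 ± 0.08 (SE, adjusted p = 0.217) and -0.34 ± 0.08 (SE, adjusted p = 0.0017) at 8 and 200 µM. At 48 h the Srebf2 signal was 2941, 2978, 3258, 3603 and 2925 in the vehicle wells, 1945, 2185, 2386, 2543 and 2576 at 8 µM, and 2111, 1747, 2136, 2109.9 and 2249 at 200 µM. Both treated groups lay below every vehicle well. The log2 fold changes were -0.43 ± 0.08 (SE, adjusted p = 7.21e-05) at 8 µM and -0.60 ± 0.08 (SE, adjusted p = 4.68e-07) at 200 µM. Here vehicle replicate 4 was the highest well, and the values were -0.38 (adjusted p = 0.000289) and -0.55 (adjusted p = 1.77e-06) without it. So at 8 µM and 48 h the Srebf2 transcript fell in the same wells in which 14 of the 18 enzymes rose.

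Insig1, itself a target of SREBP2, rose in the 8 µM groups and in the 48 h 200 µM group. Insig1 at 24 h read 14572, 17699, 15114, 16218 and 15759 in the vehicle wells, 18794, 19686, 21354, 18763 and 19155 at 8 µM, and 18039.5, 15916, 16887, 18656 and 17578 at 200 µM. The 8 µM wells lay above all vehicle wells and the 200 µM wells overlapped them, with log2 fold changes of 0.30 ± 0.09 (SE, adjusted p = 0.0123) and 0.13 ± 0.09 (SE, adjusted p = 0.332). At 48 h the Insig1 signal was 19446, 18299, 16994, 12182 and 17647 in the vehicle wells, 27593, 27543, 24850.3, 25829 and 25819 at 8 µM, and 24312, 25066, 18344, 26047 and 21527 at 200 µM. The 8 µM wells lay above every vehicle well and 4 of the 5 wells at 200 µM did as well. Insig1 rose by 0.65 ± 0.09 (SE, adjusted p = 4.9e-07) and by 0.45 ± 0.09 (SE, adjusted p = 0.000164), and without vehicle replicate 4 by 0.54 (adjusted p = 2.48e-07) and 0.34 (adjusted p = 0.00031).

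Insig2, the other INSIG gene, did not pass in any treated comparison. Insig2 at 24 h read 17489.5, 13934, 16107, 14698 and 18611 in the vehicle wells, 14417, 17647, 17274, 16712 and 18006 at 8 µM, and 16343, 19106, 15639, 18237 and 20342 at 200 µM. At 48 h its signal was 10837, 11961, 10719, 7882 and 13326 in the vehicle wells, 10151, 12467, 12519, 13321 and 13428 at 8 µM, and 12944, 12766, 11038, 13134 and 13126 at 200 µM. The groups overlapped at each time, and every 48 h well lay below every 24 h well of its own dose. Log2 fold changes ran from 0.06 to 0.22 over the 4 treated comparisons, and vehicle wells fell from 24 h to 48 h by 0.58 ± 0.10 (SE, adjusted p = 0.00022). Without vehicle replicate 4 that value was -0.46 (adjusted p = 0.000537). Scap, the SREBP2 escort, passed in none of the 4 treated comparisons either, with values from -0.23 to 0.06. At an unadjusted p below 0.05, both passed at 200 µM at 48 h only.

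Among genes that move, store or export sterol, Soat1 rose in all 4 treated comparisons. It passed the signal filter of 281 only through treated wells, since all 10 vehicle wells lay below it, so its folds and p-values are set against a level under the filter. Soat1 encodes the acyl-CoA:cholesterol acyltransferase that is known from macrophages and many other tissues, and Soat2, the hepatocyte enzyme, had no probe set. Soat1 at 24 h read 243, 232, 177, 118 and 145 in the vehicle wells, 306, 338, 298, 287 and 262 at 8 µM, and 521, 446, 416, 469.7 and 376 at 200 µM. The 3 groups did not overlap, and the order followed the dose. Its log2 fold change was 0.70 ± 0.18 (SE, adjusted p = 0.00276) at 8 µM and 1.25 ± 0.18 (SE, adjusted p = 1.13e-06) at 200 µM. At 48 h the Soat1 signal was 205, 178, 263, 226 and 276 in the vehicle wells, 676, 599, 719, 552 and 563 at 8 µM, and 934, 1037, 897, 833 and 818 at 200 µM. Again the groups were separate and in order of dose, at 1.38 ± 0.18 (SE, adjusted p = 1.07e-07) and 1.92 ± 0.18 (SE, adjusted p = 1.21e-10). The difference between doses was 0.55 at 24 h and 0.53 at 48 h with an SE of 0.18, and neither passed (adjusted p = 0.0905 and 0.0836). Without 48 h vehicle replicate 4 in the fit, both passed (adjusted p = 0.0425 and 0.0401). At these low signals the pseudocount matters: the 200 µM value at 48 h was 1.98 with a pseudocount of 1 and 1.73 with 64. A second Soat1 probe set, with signals of 29.9 to 123, was below the filter.

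Markers of Kupffer cells and macrophages were checked beside Soat1. Of 8 listed, 5 were measured (Cd68, Cd163, Clec4f, Csf1r and Cd14), Adgre1 and Ptprc were below the filter, and Marco had no probe set. The summed signal of the 5 was 19583 to 21807 in 24 h vehicle wells, 16297 to 18774 at 8 µM and 17083 to 18479 at 200 µM. At 48 h it was 12829.9 to 16635 in vehicle wells, 11347 to 13689.7 at 8 µM and 12156 to 13323 at 200 µM. The sum did not overlap between vehicle and treated wells at 24 h and overlapped at 48 h. Most of it was Cd14, with a mean of 16939 in 24 h vehicle wells, which fell at 8 µM at both times and at 200 µM at 48 h. Cd68 rose at 8 µM at 48 h, from a mean of 1232 to 1658, and fell at 200 µM at 24 h, from 1876 to 1369.7. At an unadjusted p below 0.05 in limma, Cd14 and Cd163 were also lower at 200 µM at 24 h, and Clec4f at 200 µM at 48 h. The part of these shifts in the Soat1 values was not tested.

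Abca1, the exporter that loads cholesterol onto apolipoprotein A-I, fell in 3 of the 4 treated comparisons. Abca1 at 24 h read 4569, 4454, 3562, 3977 and 4022 in the vehicle wells, 2565, 2202, 2994, 2487 and 2703 at 8 µM, and 3272, 3362, 3148, 3753 and 3535 at 200 µM. The 8 µM wells lay below all other wells, and the 200 µM wells overlapped the lowest vehicle well. Its log2 fold change was -0.67 ± 0.08 (SE, adjusted p = 1.23e-07) at 8 µM and -0.27 ± 0.08 (SE, adjusted p = 0.0181) at 200 µM. At 48 h the Abca1 signal was 3323, 3400.4, 3692, 4077 and 2888 in the vehicle wells, 2503, 2966, 2559, 2758 and 3013 at 8 µM, and 3154, 3107, 3208, 3200.3 and 3484 at 200 µM. The 8 µM wells overlapped the lowest vehicle well, with -0.33 ± 0.08 (SE, adjusted p = 0.00254), and the 200 µM value was -0.10 ± 0.08 (SE, adjusted p = 0.414). Without vehicle replicate 4 these were -0.27 (adjusted p = 0.0105) and -0.04 (adjusted p = 0.775). Abca1 was the single sterol gene that was higher at 200 µM than at 8 µM past the threshold at 24 h, by 0.40 ± 0.08 (SE, adjusted p = 0.00353). With the mean of probe sets, no sterol gene was higher there past the threshold. Mean signals of its other kept probe sets at 8 and 200 µM were 2029 and 1911, 528 and 606, and 409 and 552. At 48 h the mean of probe sets gave -0.18 at 200 µM against vehicle (limma, adjusted p = 0.0777). Of its other 3 kept probe sets, 2 fell at 8 µM at 24 h and 2 at 48 h.

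Stard4, a cytosolic sterol carrier, fell at 200 µM by 0.37 ± 0.11 (SE, adjusted p = 0.00964) at 24 h and by 0.28 ± 0.11 (SE, adjusted p = 0.0428) at 48 h, with -0.17 and -0.10 at 8 µM. The mean of its probe sets gave -0.15 and -0.03 at 200 µM, neither past the threshold. Npc2, the lysosomal sterol carrier, rose at 48 h by 0.31 ± 0.07 (SE, adjusted p = 0.000353) at 8 µM and 0.19 ± 0.07 (SE, adjusted p = 0.0269) at 200 µM. The second of these was 0.12 (adjusted p = 0.0968) without vehicle replicate 4. Tmem97, a sterol-regulated membrane protein that binds NPC1, rose at 48 h by 0.40 ± 0.11 (SE, adjusted p = 0.00459) and 0.51 ± 0.11 (SE, adjusted p = 0.000461), and by 0.23 (adjusted p = 0.0139) and 0.34 (adjusted p = 0.000482) without that well.

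**Figure D3:**
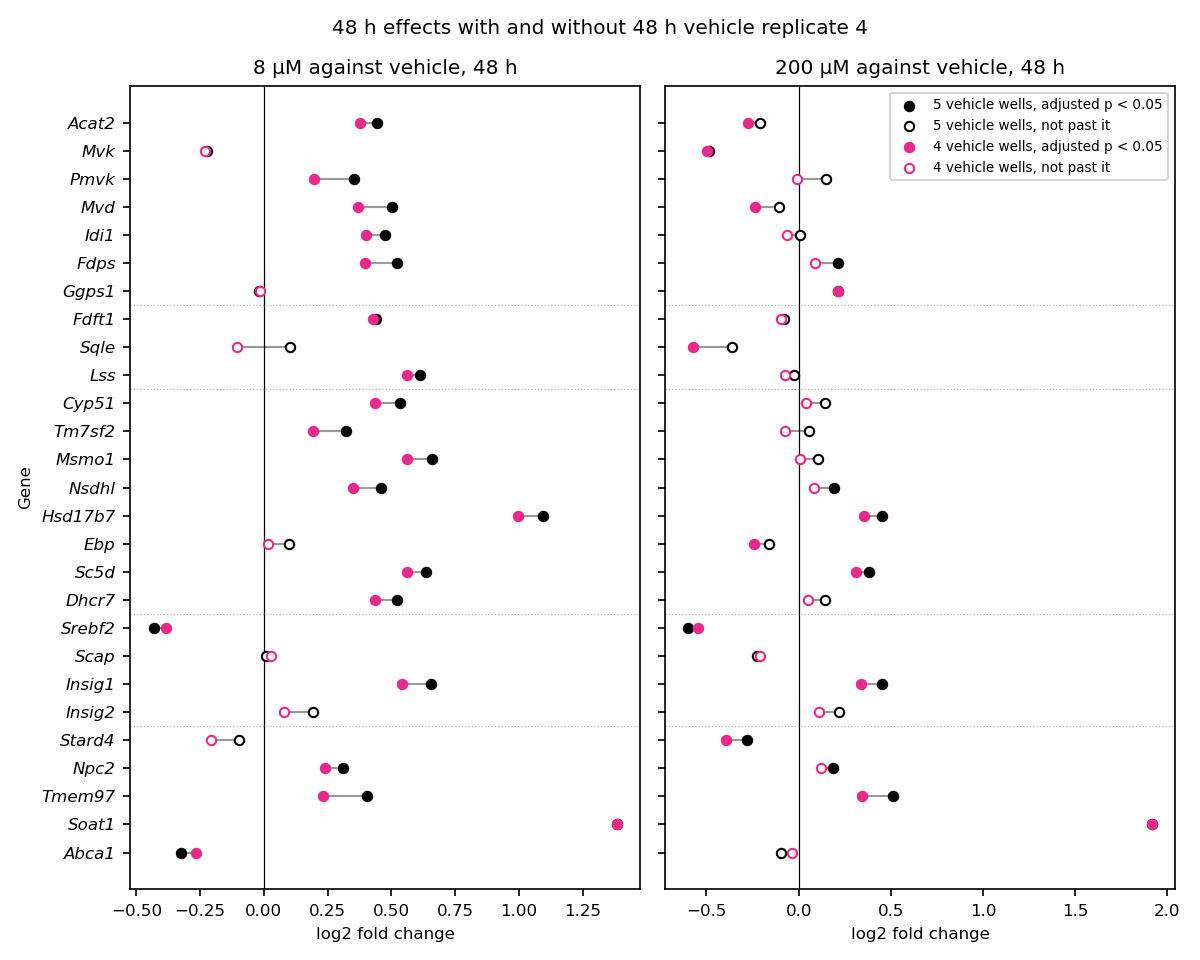
Log2 fold change at 48 h (x axis) for the 27 sterol genes (y axis) at 8 µM (left) and 200 µM (right), with all 5 vehicle wells in black and with the 4 that remain without replicate 4 in pink. Filled points passed an adjusted p of 0.05; the 8 µM calls are the same 20 genes, while at 200 µM Fdps, Nsdhl and Npc2 lose their rise and Acat2, Mvd, Sqle and Ebp gain a fall.

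The doses were also set directly against each other, and most enzyme transcripts were lower at 200 µM than at 8 µM by 48 h. At 24 h, 6 of the 18 enzymes were lower at 200 µM and none higher, and at 48 h 13 were lower and none higher. At an unadjusted p below 0.05, limma gave 9 lower and 1 higher at 24 h, and 16 lower and 1 higher at 48 h. Of all genes, 3.02% were called at 24 h, 1.39% higher and 1.63% lower, and 4.79% at 48 h, 2.26% higher and 2.53% lower. Without regard to the threshold, 17 of 18 enzymes had the higher value at 8 µM at each time, against 47.5% and 46.7% of all genes, and that count was 17 under quantile normalization and median centring too. The enzyme medians of this difference were -0.21 at 24 h and -0.39 at 48 h. Hsd17b7 was lower at 200 µM by 0.68 ± 0.09 (SE, adjusted p = 1.15e-05) at 24 h and 0.65 ± 0.09 (SE, adjusted p = 1.14e-05) at 48 h. Acat2 followed with -0.65 ± 0.09 (SE, adjusted p = 1.36e-05) at 48 h, then Lss with -0.64 ± 0.09 (SE, adjusted p = 1.73e-05) and Mvd with -0.61 ± 0.11 (SE, adjusted p = 0.000597). In 16 of the 18 enzymes every 200 µM well lay below every 8 µM well at 48 h, and in 8 of 18 at 24 h, where 8.01% and 6.93% of all genes had groups that did not overlap in either direction. Among the 9 control and transport genes, none differed past the threshold at 48 h, and Abca1 alone did at 24 h, being higher at 200 µM. With the mean of probe sets it did not pass as higher. At an unadjusted p below 0.05, 3 of them differed in either direction at 24 h and 4 at 48 h.

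This contrast at 48 h involves no vehicle well, yet 48 h vehicle replicate 4 enters the shared variance. Without it 10 enzymes were lower at 24 h and 15 at 48 h, and Ggps1 was higher at 48 h. The share of all genes called rose as well, to 5.91% and 9.03% from 3.02% and 4.79%. After median centring with all arrays, no enzyme passed at 24 h and 4 were lower at 48 h. Of all genes, 0.338% and 0.832% were called there. A setting added after seeing the data left that replicate out before centring. Then 7 enzymes were lower at 24 h and 15 at 48 h, where 4.12% and 6.31% of all genes were called.

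**Figure D4:**
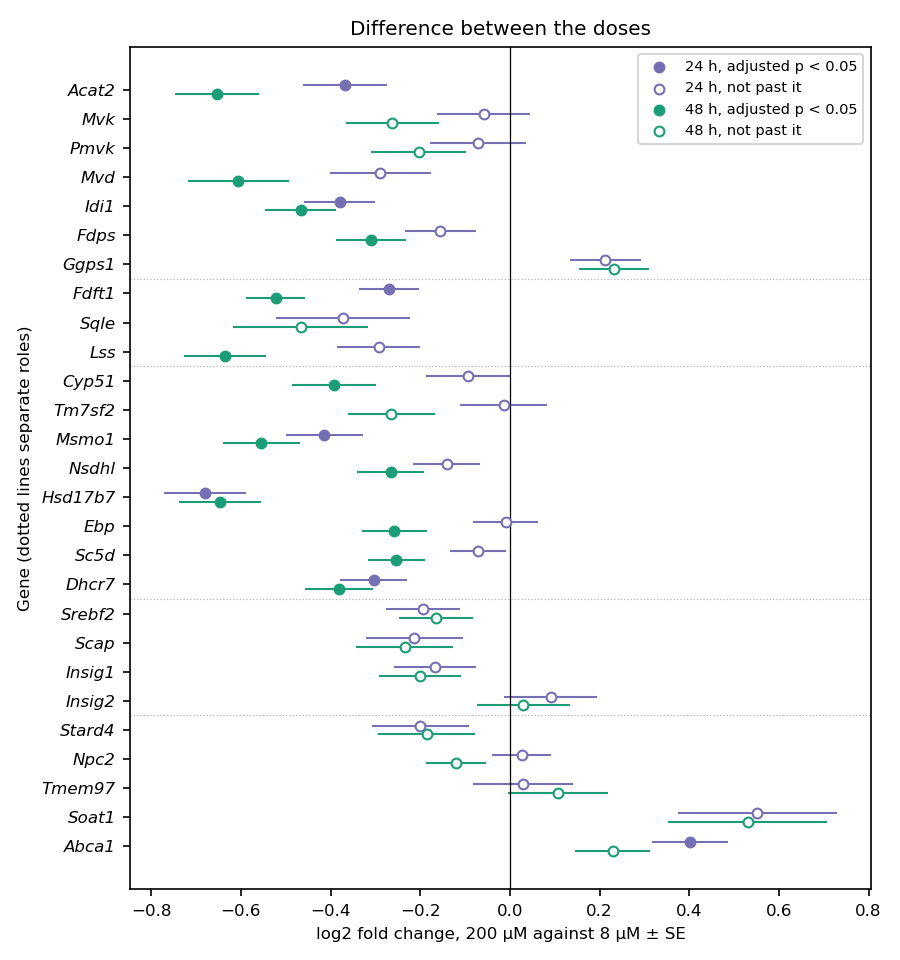
Log2 fold change of 200 µM against 8 µM (x axis, ± SE, n = 5 wells a group) for the 27 sterol genes (y axis), at 24 h in purple and 48 h in green. Filled points passed an adjusted p of 0.05; the 18 enzymes above the third dotted line lie left of 0 except Ggps1, and Soat1 and Abca1 lie to the right.

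Time entered in 2 ways. The effect of 8 µM was larger at 48 h than at 24 h for Lss, by 0.53 ± 0.13 (SE, adjusted p = 0.0169), and for Sc5d, by 0.43 ± 0.09 (SE, adjusted p = 0.00355), where 2.9% of all genes changed their 8 µM effect, 1.67% upward and 1.23% downward. All 18 enzymes had a positive difference, with a median of 0.26, but the other 16 did not pass. Without 48 h vehicle replicate 4 the median was 0.18 and 17 of the 18 were positive. No sterol gene passed for the 200 µM effect in limma, against 2.41% of all genes, 1.3% upward and 1.11% downward. At an unadjusted p below 0.05 there were 7, and with the mean of probe sets 1 passed.

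In vehicle wells alone, 5 enzymes (Acat2, Dhcr7, Fdft1, Idi1 and Msmo1) rose and Ebp, Tm7sf2 and Insig2 fell from 24 h to 48 h, where 9.87% of all genes were called, 4.46% up and 5.4% down. Of the 27 genes, 3 had groups that did not overlap with all wells, against 6.33% of all genes: Fdft1 was above, and Tm7sf2 and Insig2 were below. For Acat2, Cyp51, Dhcr7, Fdps, Idi1, Msmo1, Nsdhl and Sqle, replicate 4 alone made the groups overlap. The other 48 h wells of these genes all lay above the 24 h wells. The share of all genes with groups that did not overlap without that well was not computed. Acat2 rose by 0.41 ± 0.09 (SE, adjusted p = 0.00362) and Msmo1 by 0.41 ± 0.09 (SE, adjusted p = 0.0016). Tm7sf2 fell by 0.46 ± 0.10 (SE, adjusted p = 0.00141). Without replicate 4 of the 48 h group 11 enzymes rose and 1 fell, where 10.7% of all genes were called. Median centring with all arrays left 1 call among the 27 genes, where 2.6% of all genes were called, and shifted the median of all genes by -0.15. The enzyme median was 0.20 before and 0.06 after centring, and 0.18 above the median of all genes in both. With replicate 4 left out before centring, 12 of the 27 genes rose and 3 fell, where 8.64% of all genes were called.

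Related gene lists were counted in the same comparisons, in the order 8 µM and 200 µM at 24 h, then 8 µM and 200 µM at 48 h. Of all genes, 11.1%, 11.6%, 16.7% and 16.8% rose and 13.8%, 13.1%, 18.9% and 17.1% fell in these comparisons. Of 8 measured LXR receptor and target genes, 4, 4, 6 and 5 rose and none fell. Srebf1 and Scd belong to this list and to the SREBP1 lipogenic list, so the counts of these lists are not separate. Abcg8 at 200 µM and 48 h was the single value on the lower side at an unadjusted p below 0.05. Lpcat3, which remodels phospholipids, rose by 1.75, 1.73, 1.83 and 1.76. Abcg1, a sterol exporter, rose by 1.70, 1.54, 1.24 and 0.95, and Abcg5, a biliary sterol exporter, by 1.30, 1.24, 0.97 and 1.00. Abca1, itself an LXR target, fell in 3 of the same 4 comparisons, which share the vehicle wells of each time.

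The 13 SREBP1 lipogenic genes were mixed, with 5, 5, 7 and 7 that rose and 4, 5, 1 and 3 that fell. Fads1, a fatty acid desaturase, rose by 1.70, 1.22, 2.51 and 1.98, and Elovl6, an elongase, by 1.73, 1.64, 1.73 and 1.65. Acaca, acetyl-CoA carboxylase, fell by 1.15, 1.04, 0.81 and 0.76. Several lipogenic genes, Fads1 and Scd among them, are also known as PPARα targets in liver.

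Of 6 genes that process SREBP or degrade its sterol-linked partners, none, none, none and 1 rose and 3, 2, 3 and 3 fell. At an unadjusted p below 0.05, 0, 0, 1 and 1 were on the higher side. Erlin1, an endoplasmic reticulum scaffold of that degradation, fell by 0.67, 0.39, 0.46 and 0.25. Of 10 genes of lysosomal and cytosolic sterol handling, 2, 3, 3 and 2 rose and 3, 2, 3 and 2 fell. Nceh1 and Lipa rose throughout. Nceh1, which frees cholesterol from stored esters, rose by 1.48, 1.70, 1.79 and 1.75, and Lipa, the lysosomal acid lipase, by 1.14, 0.85, 0.97 and 0.79. Osbpl2, an oxysterol-binding carrier, fell by 0.78, 0.80, 0.74 and 0.74.

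Of 9 genes of the isoprenoid branches, which make dolichol, ubiquinone and prenyl groups, 4, 2, 4 and 2 rose and none, none, 1 and none fell. Coq2 at 8 µM and 48 h was the single value on the lower side at an unadjusted p below 0.05. Of 8 partners of sterol synthesis, 1 rose at each dose and time and 1, 2, 1 and 2 fell. The one that rose was Acat1, the mitochondrial thiolase of ketone metabolism, with log2 fold changes from 1.81 to 2.31. Cyb5r3, the reductase that feeds electrons to Sc5d and Msmo1 through cytochrome b5, fell by 0.35, 0.34, 0.27 and 0.20.

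Several probe sets were kept for 13 of the 27 genes. Over the 4 treated comparisons, a gene's call could be set against a further probe set 38 times. The further probe set passed in the same direction 22 times, did not pass 16 times and never passed in the opposite direction. For 200 µM against 8 µM at 48 h, 6 of 7 such probe sets were lower as well.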

How the data were processed

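Per the submitters' processing notes, the deposited files hold MAS5 intensity, a linear signal per probe set. The MAS5 version is not given in the sources used here. Every array was already scaled by the authors to one level (2% trimmed means of 1500.45 to 1500.7), and no scaling was added. Of 31099 probe sets, 20826 carry 1 symbol in the platform annotation. Tests used log2(signal + 16). Probe sets entered where at least 5 arrays exceeded 281.361, the 40th percentile of all values, and the brightest represented its gene. limma 3.58.1 in R 4.3.3 (eBayes with a variance trend, two-sided) fitted the 6 group means over 30 arrays, with p-values adjusted over 11545 genes. On simulated data for 8 µM against vehicle at 24 h, 81% of genes changed by 1 and 64% of those changed by 0.5 (log2) were recovered. The simulated noise came from the groups other than 48 h vehicle, so it left out replicate 4 of that group. The fits include that array in the shared variance, and recovery with it was not simulated. Signals of each well are printed for genes that passed in at least 3 of 4 treated comparisons, for the 2 largest changes in each, and for INSIG and SOAT genes. Of further lists, up to 3 of the largest changes are named. The genes, lists and tests were chosen with earlier results of these data known. Settings varied were the pseudocount (1 or 64), the filter (none, or the 60th percentile), scaling (median or quantile), the probe set rule, the arrays fitted, an array run block, the trend, weights, a minimum fold and single arrays left out. Promoters are RefSeq, GRCr8. Plots used matplotlib 3.10.9.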

Additional observations from a re-analysis of the deposited data

Results flagged for a closer look

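A well was singled out where its gap to the nearest well of its group exceeded 0.71 of the group's range. Of 162 gene and group pairs, 18 met this, and chance alone gives about 1 in 20. In 9 of the 18 the well was 48 h vehicle replicate 4, each time the lowest. Its signal, set against the range of the other 4 wells, was lowest for Idi1 (13248 against 16337 to 17649), Fdps (25843 against 38411 to 41390.4), Sqle (4674 against 9299.8 to 10025), Tm7sf2 (3545 against 5354 to 5792), Msmo1 (13805 against 18765 to 20743), Nsdhl (12300.0 against 16878 to 19029.6), Insig1 (12182 against 16994 to 19446), Stard4 (1229 against 1708 to 1929.6) and Tmem97 (4225 against 7258 to 8154).

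The other 9 were spread over groups and genes. Mvk read 1442 in 24 h 8 µM replicate 3, the lowest well, against 1762 to 1898 in the others. Ggps1 read 1497 in 24 h 8 µM replicate 2, the highest well, against 1187 to 1265 in the others. Lss read 2879 in 24 h 8 µM replicate 5, the highest well, against 2252 to 2385 in the others. Scap read 1519 in 24 h 200 µM replicate 1, the highest well, against 1158 to 1187 in the others. Tmem97 read 8638 in 24 h 200 µM replicate 2, the lowest well, against 9149.7 to 9249 in the others. Insig2 read 10151 in 48 h 8 µM replicate 1, the lowest well, against 12467 to 13428 in the others. Insig2 read 11038 in 48 h 200 µM replicate 3, the lowest well, against 12766 to 13134 in the others. Srebf2 read 1747 in 48 h 200 µM replicate 2, the lowest well, against 2109.9 to 2249 in the others. Abca1 read 3484 in 48 h 200 µM replicate 5, the highest well, against 3107 to 3208 in the others.

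The effect of 8 µM differed between times by a direct test for Lss (0.53 ± 0.13 larger at 48 h, adjusted p = 0.0169) and Sc5d (0.43 ± 0.09, adjusted p = 0.00355). In Sc5d it was higher than vehicle in 5 of 5 wells at each time. In Lss the 24 h wells overlapped.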

How the results depend on the processing

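Counts of sterol genes called, of 27, moved by more than 1.5 times under some settings. Median centring of all 30 arrays shifted the median of all genes by 0.19 and 0.17 in the 48 h comparisons of 8 and 200 µM, and gave 3 calls for 8 µM at 24 h (2 up, 1 down), 3 for 200 µM at 24 h, 7 for 200 µM at 48 h (6 up, 1 down), 0 and 4 for 200 µM against 8 µM at 24 h and 48 h, 0 for the change of the 8 µM effect and 1 for vehicle over time. In the same order, 12.7%, 11.7%, 22.9%, 0.338%, 0.832%, 0.364% and 2.6% of all genes were called. With an added fold of 1.5 the counts were 3, 2, 6 and 2 for the 4 treated comparisons in the order 8 and 200 µM at 24 h, then at 48 h, 1 and 4 between doses, 0 for the change of the 8 µM effect and 0 for vehicle. The shares of all genes were 8.93%, 7.93%, 14.2% and 12.1% for the treated comparisons. They were 0.468% and 0.953% between doses, 1.27% for the change and 2.41% for vehicle. Fitting only the arrays of the time or groups compared gave 7 for 200 µM at 48 h, 8 between doses at 48 h and 2 for vehicle (28.4%, 2.28% and 2.96% of all genes). Array weights gave 12 between doses at 24 h and 15 for vehicle (6.5% and 11.2% of all genes). The mean of probe sets gave 1 for the change of the 200 µM effect (2.23% of all genes). After seeing the data, 48 h vehicle replicate 4 was also left out before scaling. Quantile normalization then gave 11 for 200 µM at 24 h and 12 between doses at 24 h (32% and 6.39% of all genes). It gave 4 for the change of the 8 µM effect and 15 for vehicle (5.83% and 11.5%). Median centring then gave 15, 9, 19 and 11 for the treated comparisons, in the order 8 and 200 µM at 24 h, then at 48 h (27.7%, 28.3%, 34.6% and 33.5% of all genes). It gave 8 and 15 between doses (4.12% and 6.31%), 2 and 0 for the changes of the 2 effects (3.21% and 2.69%) and 15 for vehicle (8.64%). The cause was not tested. Leaving out each array in turn gave 11 to 15, 6 to 11, 20 to 21 and 8 to 13 for the treated comparisons, 4 to 12 and 11 to 17 between doses, 2 to 3 and 0 to 1 for changes of the 2 effects, and 6 to 14 for vehicle; the low of 4 came without 24 h 200 µM replicate 3, the 1 for the 200 µM effect without 48 h vehicle replicate 1 or 24 h 200 µM replicate 4, and the highs of 11 (200 µM at 24 h), 12 and 14 without 48 h vehicle replicate 4. For those highs without 48 h vehicle replicate 4, 31.0%, 5.91% and 10.7% of all genes were called. Of single genes, Ggps1 at 200 µM and 48 h reversed to -0.082 (adjusted p = 0.682) with the mean of probe sets. The 8 µM count at 48 h ranged from 18 to 21 over all settings but the added fold. The labels number arrays, not replicates, and do not say that a run of 6 arrays shares a culture. With each run as a block the counts were 13, 7, 20 and 11 for the treated comparisons (25.2%, 25.3%, 36.1% and 34.4% of all genes). They were 7 and 13 between doses (3.4% and 5.28%), 2 and 0 for the changes (3.2% and 2.5%) and 8 for vehicle (10.6%). The number of arrays limits precision, and low signals such as those of Soat1 in vehicle wells lie below the filter.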
